A study of Mus musculus with 4 samples.

Results

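The small proline-rich (SPRR) family was followed through 7 genes, Sprr1a, Sprr2a1, Sprr2a2, Sprr2a3, Sprr2b, Sprr2d and Sprr3, among the 15 Sprr genes and 31053 genes in the single-cell count matrices. They were chosen by symbol after a member had stood out in proximal luminal cells of these same data. The levels of all 7 by cell class are therefore given as a description, with no test. Adult ICR (CD-1) mice over 8 weeks old carried the P2-Runx1:RFP reporter, in which red fluorescent protein (RFP) is driven by the proximal P2 promoter of Runx1, and they were either intact or castrated for more than 4 weeks. Live EPCAM+ cells were sorted as RFP+ or RFP- from lobes dissected apart and pooled over mice, namely the anterior prostate (AP), the ventral prostate (VP) and the dorsolateral prostate (DLP), tagged with MULTI-seq lipid barcodes and sequenced in 3 runs. A separate library held EPCAM+ cells of ICR urogenital sinuses (UGS) taken at E15.5, cultured with 10 μM dihydrotestosterone and pooled at days 0, 1, 3 and 6. Both sorts mixed basal and luminal cells, and castrated and intact cells of a run shared 1 droplet library.

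SPRR proteins are precursors of the cornified envelope, the cross-linked protein layer beneath the plasma membrane of terminally differentiated stratified epithelial cells. Transglutaminases join them through glutamine and lysine residues to involucrin, loricrin and other envelope proteins, and their genes lie together in the epidermal differentiation complex. They are known to be induced in epithelia outside the skin under stress, injury or inflammation, and AP-1 and Ets family factors are known regulators of their promoters.

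All 7 genes lay on chromosome 3 of GRCm38 (mm10) within 270.1 kb, between positions 92215799 and 92485895, and all were annotated as protein-coding. Sprr2a1 (ENSMUSG00000078664, 92215799 to 92221911, plus strand) lay within the interval of Sprr2a2 (ENSMUSG00000068893, 92215920 to 92256724, plus strand) for all but its first bases. Sprr2a3 (ENSMUSG00000074445, 92285417 to 92291405), Sprr2b (ENSMUSG00000050092, 92316620 to 92318085) and Sprr2d (ENSMUSG00000042212, 92339140 to 92340873) followed on the same strand. Sprr3 (ENSMUSG00000045539, 92456502 to 92458720) and Sprr1a (ENSMUSG00000050359, 92483952 to 92485895) lay on the minus strand.

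How far a 3′ read could name 1 member was measured in the last 500 bases of each transcript, read as windows of 90 bases. For Sprr2a1 and Sprr2a2, 0 of 411 windows were found in no other gene. For Sprr2a3, 294 of 411 windows (71.5%) of one transcript and 180 of 411 (43.8%) of the other were its own. All 411 windows were unique for Sprr1a, Sprr2b, Sprr2d and Sprr3. Counts of Sprr2a1 and Sprr2a2 could therefore not be assigned to either gene, and reads shared with another gene would be lost to both where only uniquely assigned reads are counted, which also bears on the level of Sprr2a3.

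The windows read as promoters of the 7 members differed in the letters they held. The bases before the RefSeq start (GRCm38.p6) are shown for Sprr1a and Sprr2a3, which carried nearly all of the counts, and for Sprr2d, another SPRR2 gene, which was almost absent. The stretches shown are chr3:92485896-92486131 on the minus strand, which stops at the edge of the annotated gene, and chr3:92285054-92285303 and chr3:92338890-92339139 on the plus strand. Each runs 5′ to 3′ with capitals at matches, on either strand, to the AP-1 motif TGANTCA, the octamer ATTTGCAT or the TATA motif TATAAA.
Sprr1a: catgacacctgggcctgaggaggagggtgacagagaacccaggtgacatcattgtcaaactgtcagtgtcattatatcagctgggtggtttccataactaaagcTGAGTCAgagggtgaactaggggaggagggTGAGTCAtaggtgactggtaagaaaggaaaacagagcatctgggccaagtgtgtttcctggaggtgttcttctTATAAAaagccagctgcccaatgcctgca
Sprr2a3: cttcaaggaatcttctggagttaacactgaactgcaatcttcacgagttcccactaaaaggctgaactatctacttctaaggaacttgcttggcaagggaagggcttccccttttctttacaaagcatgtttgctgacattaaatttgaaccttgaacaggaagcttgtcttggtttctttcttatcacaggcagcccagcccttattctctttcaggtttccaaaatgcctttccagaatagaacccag
Sprr2d: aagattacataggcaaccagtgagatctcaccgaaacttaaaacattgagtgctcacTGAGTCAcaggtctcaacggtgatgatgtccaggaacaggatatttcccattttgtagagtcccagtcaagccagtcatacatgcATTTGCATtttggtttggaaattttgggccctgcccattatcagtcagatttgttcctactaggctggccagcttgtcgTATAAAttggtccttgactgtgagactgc
Counted from the RefSeq start, the first bases of the AP-1 matches of Sprr1a stood at -146 and -116 and its TATA match at -43. Sprr2d held AP-1, octamer and TATA matches at -193, -108 and -29, and Sprr2b held the same set at -195, -108 and -29. Sprr3 held a TATA match only, at -33. No letters of the 3 motifs were found in the windows of Sprr2a1, Sprr2a2 and Sprr2a3. The Sprr2a3 window ended at 92285303, upstream of the annotated gene start at 92285417, and the gene has 2 annotated transcripts, of 682 and 2880 bases. Windows at any other start of a gene were not read, so an absence of motifs holds for these windows only. Among 32851 RefSeq promoter windows of 250 bases, 6.75% held at least 1 AP-1 match, 0.338% held 2 or more, 1.60% held the octamer and 12.4% held the TATA motif. The windows of Sprr2a1 and Sprr2a2 were identical, and that of Sprr2a3 matched Sprr2a1 at every base of a 222-base overlap. Sprr2b and Sprr2d matched at 136 of 250 bases (54.4%).

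The libraries held 824, 2194 and 1673 assigned cells in runs 1, 2 and 3 and 5198 in the explant library, with medians of 13055, 10618.5, 9750 and 14784.5 unique molecular identifiers (UMIs) per cell. Any pair of libraries shared 0 to 2 cell barcodes. Intact cells numbered 806, 1233 and 1673 by run. Castrated cells numbered 961 in run 2, 18 in run 1 and 0 in run 3, and intact DLP RFP+ cells came from run 3 alone. Intact comparisons were therefore made over 3 runs, while castrated and explant comparisons rested on 1 library with no replicate check.

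Sprr1a and Sprr2a3 held 99.9% of the 71986 UMIs of the 7 members and 99.2% of the 72491 UMIs of all Sprr genes in assigned cells. Sprr1a, an envelope precursor of stratifying epithelium, had 2474, 20771 and 9958 UMIs in runs 1 to 3 and 31729 in the explant library, 89.6% of all Sprr UMIs. Sprr2a3 had 2402, 1451, 1168 and 1966 UMIs in the same order, 9.64% of the total. The counts tally 1 transcript end per molecule, so no division by length was made, and the shares still depend on how uniquely each end maps.

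The other 5 members were at or near the limit of detection. Sprr2a1 had 25 UMIs in all, Sprr2b 21, Sprr2d 10, Sprr2a2 7 and Sprr3 4. The few UMIs of Sprr2a1 stood mostly in intact Lum-D-like cells, at 5, 3 and 5 UMIs in runs 1 to 3, or 2.44 ± 0.767 CPM (SD, n = 3), where CPM is the gene's share of all UMIs of the sum on the usual per-library scale. Sprr2b followed with 10, 4 and 1 UMIs there (2.50 ± 1.70 CPM, SD, n = 3), and Sprr2a2 had 3. Of the 10 Sprr2d UMIs, 9 came from 1 castrated DLP RFP+ cell. Sprr3, typical of esophageal and oral epithelium, was not seen in any assigned adult cell, and its 4 UMIs lay in 1 explant cluster, described below. Of the 8 Sprr genes that were no members, Sprr2f was the most counted with 323 UMIs, of which 199 came from 3 of 8 castrated mesonephric-like cells of run 2, and Sprr4 had none.

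Cells were clustered within each setting and named from marker genes. The adult luminal classes were Lum-A-like to Lum-EF-like, where Lum-D denotes the proximal luminal cells and Lum-EF the luminal cells of castrated mice. For 5 classes all 5 markers were higher inside than outside the class. In Lum-D-like cells 4 of 5 were, with Psca at 7669 CPM against 34.0 and Krt4 at 493 against 8.18, and Ly6d was lower inside at 13.2 against 39.1. A cluster kept its name only when its best marker score led the next by 0.3, a margin set after the scores were seen. This left 70 adult cells unnamed, led by Ivl, Aqp3, Grp, Sptssb, Ly6d and Upk3a, with the basal keratin Krt5 at 1007 CPM. Sprr genes were left out of the genes used for clustering. The classes were still drawn from genes of the same cells, so differences between classes are described and not tested.

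Sprr2a3 was concentrated in Lum-D-like cells of the intact prostate. It stood at 636, 688 and 642 CPM in runs 1, 2 and 3 (655 ± 28.4, SD, n = 3). Basal-like cells had 4.07, 14.9 and 5.27 CPM (8.07 ± 5.92, n = 3). Lum-A-like cells, most of them from the VP sorts, had 0, 1.10 and 0.0971 CPM. Lum-B-like cells averaged 1.35 ± 1.59 CPM, and Lum-C-like cells 0.384 CPM in the 2 runs with a sum. Counting also the 4 Lum-C-like cells of run 1, too few for a sum, that class had 23 Sprr2a3 UMIs in 2 of 75 cells, or 8.76 CPM. Every summed run of Lum-D-like cells thus lay above every summed run of these 4 classes. No Sprr2a3 UMI was found in intact Lum-EF-like cells, where a count of 0 allows up to 14.2 and 14.1 CPM in the 2 runs with a sum.

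Some high sums of Sprr2a3 outside Lum-D-like cells came from single cells. Hematopoietic-like cells of run 1 had 476 CPM, with 223 of their 224 UMIs in 1 cell, against 0 and 16.1 CPM in runs 2 and 3. Fibroblast-like cells of run 1 had 91.1 CPM, with 80 UMIs in 1 cell. The unnamed adult cluster had 993 CPM in 15 cells of run 2 and 18.5 CPM in 42 cells of run 3, so the runs disagreed more than 10-fold there. Counting that cluster as Lum-D-like, an alternative added after the data were seen, left the mean in Lum-D-like cells within 1 SD.

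Sprr1a was spread over more classes than Sprr2a3. In the 2 runs with a sum it was highest in the unnamed cluster, at 2335 and 1693 CPM in runs 2 and 3. Lum-D-like cells followed with 537, 1158 and 931 CPM in runs 1 to 3 (875 ± 314, SD, n = 3), and the sums of the unnamed cluster did not overlap them. The 7 intact unnamed cells of run 1 were too few for a sum. Of these, 4 AP RFP+ cells had 275 CPM, under every run of Lum-D-like cells, and the other sorts had 0 or 1 UMI each. Lum-EF-like cells had 432 and 542 CPM in the 2 runs with a sum, and basal-like cells had 79.5, 470 and 780 CPM (443 ± 351). The ranges of Lum-D-like, Lum-EF-like and basal-like cells overlapped in that order. Lum-B-like cells, which came from the AP and DLP sorts with few exceptions, had 69.3, 68.1 and 152 CPM (96.4 ± 48.1), above Lum-C-like cells at 27.8 and 66.0 CPM. Classes outside the epithelium reached such levels too. Endothelial-like (123 ± 73.5 CPM, n = 3) and fibroblast-like cells (109 ± 46.4, n = 3) averaged above Lum-B-like cells, with overlapping ranges. The 14 mesonephric-like cells of run 3 had 440 CPM. Lum-A-like cells were lowest with 0.299, 13.3 and 13.3 CPM (8.97 ± 7.51), under every run of hematopoietic-like cells (40.3 ± 8.24 CPM). In Lum-A-like cells of both treatments Sbp had 384980 and Spink1 139250 CPM, which lowers the CPM of all their other genes.

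**Figure D1:**
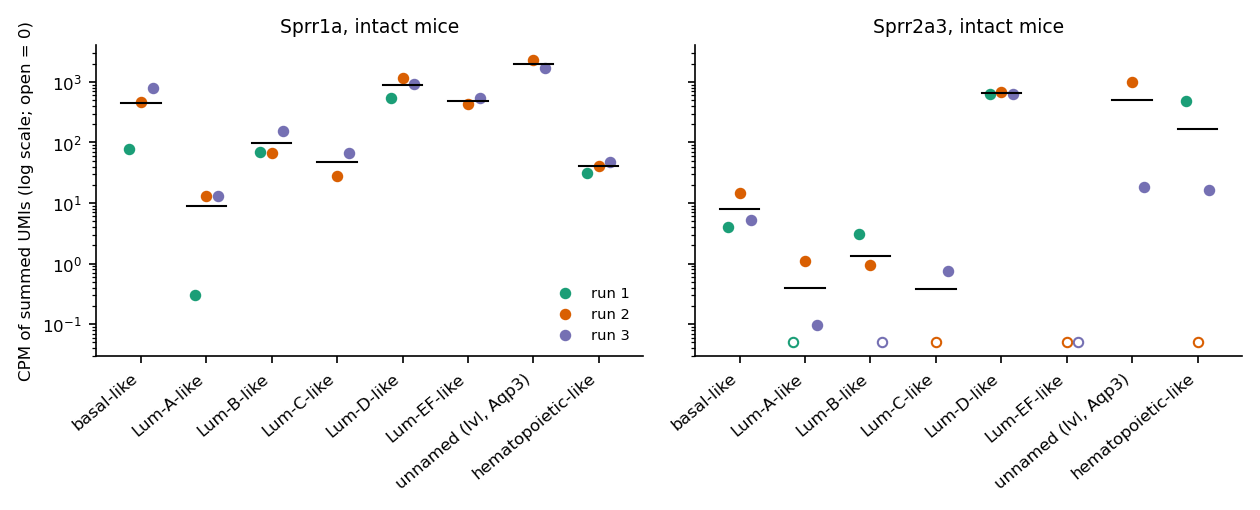
Levels of Sprr1a and Sprr2a3 in classes of intact adult cells, in CPM on a log axis, with 1 point per run, a bar at the mean over runs and open points for sums with no UMI. Endothelial-like, fibroblast-like and mesonephric-like cells are not drawn. Sprr2a3 stands at 636 to 688 CPM in Lum-D-like cells and at 15 or less in basal-like cells, while Sprr1a of basal-like cells runs from 79.5 to 780 CPM.

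Basal-like cells were not uniform for Sprr1a. The cluster led by Aebp1, Prelp and Krt17 had 72.2, 567 and 861 CPM in runs 1 to 3, and that led by Col23a1, Smoc2 and Srd5a1 had 136, 307 and 761 CPM. Both clusters were lowest in run 1 and highest in run 3, so the wide spread of basal-like Sprr1a was shared between them. The cluster led by Dio3, Rtbdn and Pou3f1 had no Sprr1a UMI among the 40414 UMIs of 9 cells in run 2 and 13.3 CPM in 79 cells of run 3. Runs 1 and 2 were sequenced on a NovaSeq and run 3 on a HiSeq instrument. The part of the run in these values was not tested.

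Within Lum-D-like cells, a minority of cells carried most of the counts. Sprr2a3 had a UMI in 130 of 205, 38 of 95 and 42 of 152 intact cells of runs 1 to 3 (63.4% in run 1 and 27.6% in run 3). The 20, 10 and 15 cells with most UMIs held 61.3%, 77.9% and 90.7% of all Sprr2a3 UMIs, and the highest single cells had 294, 98 and 191. The mean CPM of the 3 runs was therefore alike while the share of positive cells differed. Sprr1a had a UMI in 98, 58 and 56 of these cells (47.8%, 61.1% and 36.8%), with 73.1%, 51.6% and 71.7% of its UMIs in as many top cells. Both genes were seen together in 77, 31 and 21 cells and neither in 54, 30 and 75. Sprr2a3 without Sprr1a was seen in 53, 7 and 21 cells and Sprr1a without Sprr2a3 in 21, 27 and 35.

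Free RNA and depth bear on such shares. In hematopoietic-like cells, which should lack both genes, Sprr2a3 had a UMI in 4.65%, 0% and 8.33% of cells and Sprr1a in 6.98%, 10.3% and, as 3 of 12 cells, the highest share in run 3, at median depths of 7419, 6480 and 16300 UMIs against 12537, 9237 and 10166 in Lum-D-like cells. With each cell thinned to 3000 UMIs, Sprr2a3 was seen in 46.5%, 30.4% and 21.4% of Lum-D-like cells and in 4.88%, 0% and 0% of hematopoietic-like cells. Thinned Sprr1a shares were 31.7%, 52.2% and 31.7% in Lum-D-like cells, 11.6%, 34.9% and 36.1% in basal-like cells and 2.44%, 5.31% and 16.7% in hematopoietic-like cells. Cells under 3000 UMIs were left out, 3, 3 and 7 of them Lum-D-like, 5, 8 and 10 basal-like and 2, 27 and 0 hematopoietic-like. The thinned shares of Lum-D-like cells stood above those of hematopoietic-like cells in every run for both genes.

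**Figure D2:**
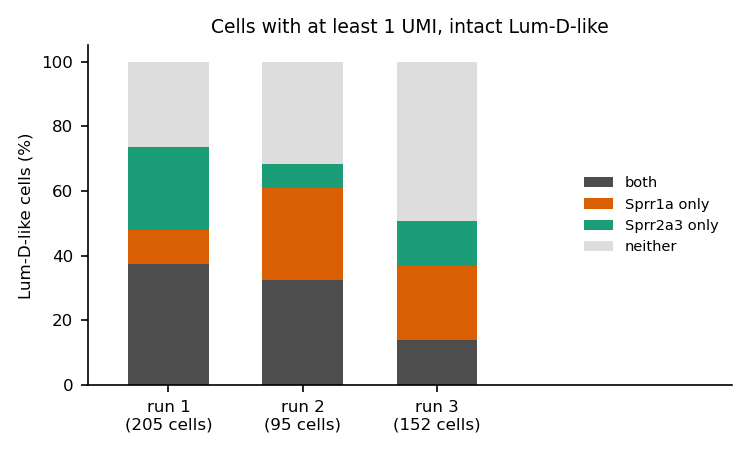
Shares of intact Lum-D-like cells with a UMI of both genes, of Sprr1a only, of Sprr2a3 only or of neither, in percent, as 1 stacked bar per run (205, 95 and 152 cells). Cells with Sprr2a3 make up 63.4% of run 1 and 27.6% of run 3, and cells with neither number 54, 30 and 75.

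Among the luminal-like sorts by lobe and reporter, both genes were highest in RFP+ cells of the anterior lobe. Sprr2a3 had 526, 382 and 597 CPM in AP RFP+ luminal-like cells of runs 1 to 3 (501 ± 109, SD, n = 3) against 70.2, 20.8 and 0 in AP RFP- cells (30.3 ± 36.1). Sprr1a had 492, 700 and 794 CPM (662 ± 155) against 25.9, 38.2 and 123 (62.3 ± 52.6). The RFP+ and RFP- values did not overlap for either gene. The edgeR quasi-likelihood fit put the difference at 3.35 (SE 0.57) for Sprr1a and 3.87 (SE 0.75) for Sprr2a3 on the log2 scale. No p is given, since this contrast overlaps the one that drew attention to the family. In that fit 13.2% of 8972 genes were called higher and 11.7% lower at an adjusted p of 0.05. The sorts differed in makeup, since 87.2%, 76.7% and 88.3% of AP RFP+ luminal-like cells were Lum-D-like while 88.3%, 82.6% and 91.3% of AP RFP- luminal-like cells were Lum-B-like. Whether a level or the makeup of the sort differs cannot be told apart in these sums. With the unnamed cluster counted as Lum-D-like, the difference of Sprr2a3 was 2.89.

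The other lobes had lower luminal levels. DLP RFP- luminal-like cells had 165, 170 and 158 CPM of Sprr1a (164 ± 5.88, n = 3), and the single sum of DLP RFP+ cells in run 3 had 110 CPM. These sorts differed in makeup as well. Of the DLP RFP- cells 60%, 54.5% and 74.3% were Lum-B-like. The DLP RFP+ sum held 66 cells, 59.1% Lum-A-like and 25.8% Lum-D-like. Whether a level or the makeup of the sort differs cannot be told apart here. Sprr2a3 was 91.8, 4.74 and 0.645 CPM in DLP RFP- cells and 3.22 CPM in DLP RFP+ cells of run 3. VP luminal-like cells were low in both sorts, with Sprr1a at 7.03 ± 6.17 CPM in RFP+ and 12.8 ± 8.42 in RFP- cells. Of the VP RFP+ cells 84.3%, 92.9% and 94.5% were Lum-A-like. The VP RFP- value of Sprr2a3 in run 1, 50.5 CPM, came from 28 UMIs in 2 cells, and runs 2 and 3 had none.

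**Figure D3:**
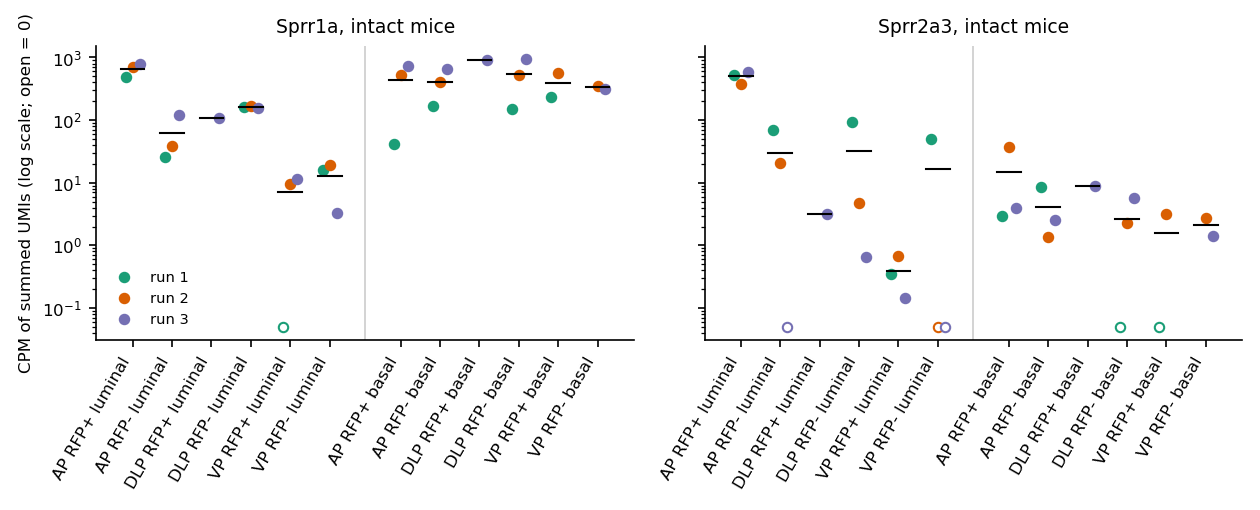
Levels of Sprr1a and Sprr2a3 in intact luminal-like and basal-like cells by lobe and RFP sort, in CPM on a log axis, with 1 point per run and a bar at the mean. AP RFP+ luminal-like cells lie above AP RFP- luminal-like cells in every run for both genes, whereas the basal-like sorts overlap for Sprr1a.

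Lum-D-like cells were found in small numbers outside the AP RFP+ sort, and their Sprr2a3 level varied by lobe. AP RFP+ Lum-D-like cells had 663, 761 and 765 CPM of Sprr2a3 in runs 1 to 3 (184, 79 and 128 cells). The few AP RFP- cells of this class had 860 CPM in 5 cells and 952 CPM in 4 cells. DLP RFP+ Lum-D-like cells of run 3 had 49.0 CPM in 17 cells, while their Sprr1a stood at 828 CPM. VP RFP+ Lum-D-like cells had 8.63, 0 and 0 CPM of Sprr2a3 and 0, 0 and 11.4 CPM of Sprr1a in 6, 5 and 7 cells. DLP RFP- Lum-D-like cells had 406 CPM in 8 cells of run 1 and 91.8 CPM in 7 cells of run 2, and 2 VP RFP- cells of run 1 had 6 UMIs, all in 1 cell. Sprr2a3 of the class was thus seen in both RFP sorts of AP and of DLP, and outside the AP RFP+ sort the counts of cells were too small for a test.

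Other genes of the pathway were read from 3 lists. The lists were chosen with results of these data known, so their counts in AP luminal-like cells are a description and not a test, to be read beside the 13.2% of all 8972 genes called higher in RFP+ cells and the 11.7% called lower. Of 24 cornified envelope genes 8 passed the filter on low counts, and 4 of these were among the genes called higher and 0 among those called lower. The 4 were Anxa1 (log2 2.76), an annexin of the envelope, Ppl (2.37), which encodes periplakin, Sbsn (1.77), which encodes suprabasin, and Dsp (0.94), which encodes the desmosomal protein desmoplakin. The list median was 1.02 against -0.0086 over all genes tested. Of 18 regulators of epithelial stress and differentiation, 15 passed the filter, 8 were called higher and 1, the Ets factor Ehf (-0.65), lower, with a median of 1.30. The genes called higher were the Ets factor Elf3 (2.51), the Krüppel-like factors Klf5 (2.72) and Klf4 (1.75), the AP-1 and related factors Fosl1 (2.25), Fosl2 (2.04), Junb (1.49) and Atf3 (1.30), and Nfe2l2 (1.79), the oxidative stress factor NRF2. Of 6 urothelial genes 3 passed the filter and all 3 were called higher, Upk2 (2.41), Upk1a (1.74) and Upk1b (1.11).

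The same lists were described in Lum-D-like cells against Lum-A-, Lum-B- and Lum-C-like cells. There the fitted log2 difference was 3.96 (SE 0.39) for Sprr1a and 7.79 (SE 0.74) for Sprr2a3, in a fit that called 17.5% of 10353 genes higher and 17.2% lower, and 2 of the 7 members passed its filter. Without the cells of highest doublet scores the Sprr2a3 value was 4.90. Medians were 1.28 for the 11 cornified envelope genes measured, 0.54 for the 16 regulators and 2.54 for the 3 uroplakins, against -0.0051 over all genes. Scel, which encodes the envelope protein sciellin, was at 3.61, and Spink5, an inhibitor of epidermal proteases, was at -5.65. Ivl, which encodes involucrin, stood at 62.4 and 500 CPM in the 2 runs of the unnamed cluster and averaged 2.09 CPM in Lum-D-like and 6.36 CPM in basal-like cells. Tgm1, the transglutaminase of keratinocytes, averaged 5.49 CPM in basal-like and 0.103 CPM in Lum-D-like cells, and the stress keratin Krt6a had 4.62 and 97.3 CPM in the 2 runs of the unnamed cluster and 1.86 to 19.1 CPM in Lum-D-like cells, so that 1 run of the unnamed cluster lay within the Lum-D-like range and 1 above it. Ivl, Tgm1 and Krt6a were singled out after their values were seen.

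Comparisons other than those that showed the pattern of the genes were tested with edgeR over the 3 runs. The main fit did not pair the sums by run. A fit with the run as a block, which pairs them, is given beside each. VP luminal-like cells, and AP luminal-like cells outside Lum-D-like cells, had also entered the luminal contrasts described above. Their tests are therefore not independent of those contrasts. In each of the 4 tests Sprr1a alone of the 7 members passed the filter on low counts. In basal-like cells of the anterior lobe Sprr1a had 41.5, 532 and 728 CPM in RFP+ and 168, 407 and 648 CPM in RFP- cells. These overlapped, and the log2 difference was 0.09 (SE 0.86, edgeR adjusted p = 1.0). No gene of 8307 was called, or 0%, with 88 at an unadjusted p under 0.05 and 1 called by DESeq2. With the run as a block 44 of these genes were called, and the difference of Sprr1a was -0.23 (SE 0.17, edgeR adjusted p = 0.866). Across runs the basal-like values spread more widely than between the sorts of any run.

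In VP luminal-like cells Sprr1a had a log2 difference between RFP+ and RFP- cells of -0.72 (SE 0.75, edgeR adjusted p = 0.982), while 26 of 7966 genes (0.326%) were called, all lower. With the run as a block the difference was -0.67 (SE 0.57, edgeR adjusted p = 0.739), with 139 genes called. The VP sums overlapped, at 0, 9.52 and 11.6 CPM in RFP+ and 16.2, 19.1 and 3.26 CPM in RFP- cells. Between RFP+ basal-like cells of the anterior and ventral lobes the difference was 0.21 (SE 0.92, edgeR adjusted p = 1.0), with 1 of 8327 genes (0.012%) called lower. There the block changed the call, to -0.82 (SE 0.22, edgeR adjusted p = 0.0247), that is lower in the anterior lobe, with 104 genes called. Only runs 1 and 2 paired the lobes in that fit, and the VP sum of run 1 held 11 cells. The fit thus had almost no replicate spread to measure, and its SE does not show the spread between runs. In that lobe comparison VP had sums of at least 10 cells in runs 1 and 2 only, 231 and 557 CPM, beside 41.5 and 532 CPM in AP, while the 9 VP cells of run 3 had 216 CPM and did not enter the fit.

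Outside Lum-D-like cells, Sprr1a of AP luminal-like cells was 1.27 higher in RFP+ cells on the log2 scale (SE 0.78), which did not pass the test (edgeR adjusted p = 0.75), while 20 of 6333 genes (0.316%) were called higher. Run 2 carried most of that difference, since it was 0.06 without run 2 (edgeR adjusted p = 0.999). Without run 3 it was 2.98 (edgeR adjusted p = 0.0842). Without the filter on low counts the difference was 1.19 (SE 0.27) and passed (edgeR adjusted p = 0.000436). With the filter and the run as a block the difference was 1.70 (SE 0.75, edgeR adjusted p = 0.348), with 136 genes called. No gene of the 3 lists was called in any of the 4 tests without the block. Sprr2a3 did not pass the filter in these tests. Without the filter it was lower in VP RFP+ luminal-like cells, with a log2 difference of -4.37 (SE 0.81, edgeR adjusted p = 0.000118), a value that rests on the 28 UMIs of 2 cells of run 1. It was higher in AP RFP+ luminal-like cells outside Lum-D-like cells by 3.04 (SE 0.95, edgeR adjusted p = 0.0415). That value too rests on few counts, since all intact Lum-A-like cells together held 15 Sprr2a3 UMIs and all Lum-B-like cells 10.

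After castration Sprr1a was higher and Sprr2a3 lower in AP luminal-like cells of run 2, where both treatments shared 1 library. These are single sums, so ratios are given with 95% intervals that cover counting error only, and with no p. In AP RFP+ luminal-like cells Sprr1a had 2054 CPM in 193 castrated cells and 700 CPM in 103 intact cells, a ratio of 2.93 (2.76 to 3.12). Of 2786 genes at 50 CPM or more in either sum, 8.61% were at least 2-fold higher and 6.6% at least 2-fold lower. Sprr2a3 had 5.55 CPM (19 UMIs) against 382 CPM (656 UMIs), a ratio of 0.0145 (0.00868 to 0.0229). The classes behind these sums differed, since 159 of the 193 castrated cells (82.4%) were Lum-EF-like and 18 (9.33%) Lum-D-like, against 76.7% Lum-D-like in the intact sort. With the unnamed cluster counted as Lum-D-like, and so as luminal, the log2 ratio of Sprr2a3 was -4.33 in place of -6.11, and that of Sprr1a was 1.32 in place of 1.55. Lum-EF-like cells and castrated cells cannot be told apart here, because few intact cells were of that class.

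Within Lum-D-like cells alone Sprr2a3 was again lower after castration, while Sprr1a was under 2-fold higher. AP RFP+ Lum-D-like cells had 22.5 CPM of Sprr2a3 in 18 castrated cells (4 UMIs) and 761 CPM in 79 intact cells (647 UMIs), a ratio of 0.0296 (0.00803 to 0.0761). Their Sprr1a was 1535 against 1271 CPM, a ratio of 1.21 (1.05 to 1.38). In that comparison 5.5% of genes were at least 2-fold higher and 12.1% at least 2-fold lower. Over all lobes, Lum-D-like Sprr2a3 was 27.2 against 688 CPM (0.0396, 0.0180 to 0.0757) and Sprr1a 1462 against 1158 CPM (1.26, 1.13 to 1.40), with backgrounds of 8.8% lower and 3.09% higher.

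Other luminal sorts also had more Sprr1a after castration, from lower intact levels and in different classes. Of AP RFP- luminal-like cells 82.6% were Lum-B-like in intact and 75% Lum-EF-like in castrated mice, and of VP RFP+ luminal-like cells 92.9% were Lum-A-like and 84.9% Lum-EF-like. AP RFP- luminal-like cells had 1140 CPM in 48 castrated and 38.2 CPM in 144 intact cells, a ratio of 29.8 (24.8 to 36.1), with 6.2% of genes at least 2-fold higher. Sprr2a3 there was 1 UMI against 69, a ratio of 0.0511 (0.00127 to 0.294), with 12.3% of genes at least 2-fold lower. DLP RFP- luminal-like cells had 411 against 170 CPM of Sprr1a (2.42, 2.00 to 2.93), with 2.13% of genes at least 2-fold higher and 12.4% lower, and Sprr2a3 had 0 against 7 UMIs. VP RFP+ luminal-like cells had 303 against 9.52 CPM (31.8, 25.3 to 40.4). But there 52.3% of genes were at least 2-fold higher and 2.2% at least 2-fold lower, and the median gene was 1.01 higher on the log2 scale. The part of the high Sbp and Spink1 counts of Lum-A-like cells in these ratios was not tested. Sprr2a3 there was 0.406 against 0.689 CPM.

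Basal-like cells had more Sprr1a after castration and a low level of Sprr2a3 in both treatments. Sprr1a was 1147 CPM in 291 castrated and 470 CPM in 303 intact basal-like cells, a ratio of 2.44 (2.29 to 2.60), with 1.2% of genes at least 2-fold higher. Sprr2a3 was 11.1 against 14.9 CPM (0.747, 0.431 to 1.25), an interval that includes no difference, beside 7.24% of genes at least 2-fold lower. In the AP RFP+ sort alone basal-like Sprr1a was 1470 against 532 CPM (2.76, 2.53 to 3.03), beside 1.36% of genes at least 2-fold higher, and Sprr2a3 was 14.7 against 37.1 CPM (0.397, 0.217 to 0.698), beside 9.22% lower. VP RFP+ basal-like cells had 513 against 557 CPM of Sprr1a (0.922, 0.748 to 1.14), and 5.19% of genes there were at least 2-fold higher and 14.6% lower. Hematopoietic-like cells of the same library also read higher for Sprr1a, at 218 against 40.7 CPM (5.36, 4.18 to 6.90), beside 5.81% of genes. The part of free RNA in these ratios was not tested.

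**Figure D4:**
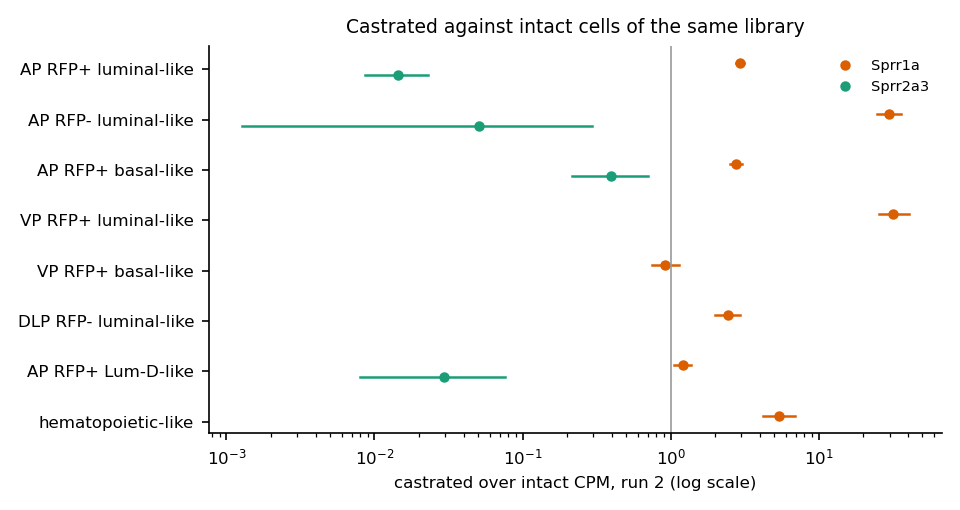
Ratio of castrated to intact CPM in run 2 for Sprr1a and Sprr2a3 by sorted population and class, on a log axis with 95% intervals for counting error and a line at 1. Sprr1a lies between 0.922 and 31.8, while Sprr2a3 of AP RFP+ luminal-like cells lies at 0.0145 and that of AP RFP+ Lum-D-like cells at 0.0296.

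The castrated luminal cells were themselves divided. In the Lum-EF-like cluster led by Il1b, Retnla, Lyz2, Cd74 and MHC class II genes, Sprr1a had 2250 CPM in 344 castrated and 414 CPM in 28 intact cells, and in that led by Ang5, Ang4, Ang2 and Crym it had 402 CPM in 111 castrated cells. Cd74 was also a hematopoietic marker here, and the part of immune cells or their free RNA in the first cluster was not tested. By sort, castrated Lum-EF-like cells had 2532 CPM in AP RFP+, 2517 in AP RFP-, 2011 in DLP RFP+, 1496 in DLP RFP- and 306 in VP RFP+ cells. Sprr1a was therefore lowest in the ventral lobe in castrated as in intact luminal-like cells. Sprr2a3 of castrated Lum-EF-like cells was 5.68 CPM in AP RFP+ and 0 in VP RFP+ cells and came to 205 UMIs in 25 of 132 DLP RFP+ cells, so the dorsolateral lobe held most of what was left. In run 1, 11 castrated RFP+ luminal-like cells of pooled lobes had 590 CPM of Sprr1a and no Sprr2a3 UMI.

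Genes of the lists passed a 2-fold change in both directions in castrated AP RFP+ luminal-like cells, where 8.61% of all genes were at least 2-fold higher and 6.6% lower. Of 24 cornified envelope genes 6 reached 50 CPM, and Krt6a was 15.0-fold higher (52.6 against 3.50 CPM) and Anxa1 lower (59.0 against 458 CPM, 0.129). Of 18 regulators 14 reached it, Fosl1 was 7.17-fold higher (154 against 21.6 CPM) and Stat3 2.04-fold, and Elf3 was lower (39.4 against 83.3 CPM, 0.473). Of 6 urothelial genes 3 reached it, and Upk3a was higher at 56.1 against 0.583 CPM. List medians of log2(CPM + 1) differences were 0.0 for cornified envelope genes, 0.0045 for regulators and 0.22 for urothelial genes, against 0.19 over all genes at 50 CPM. In AP RFP+ Lum-D-like cells Fosl1 was 157 against 31.7 CPM (4.96-fold) and Ovol1, a factor of epidermal differentiation, 78.7 against 7.05 CPM (11.2-fold).

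In the explant library Sprr1a was present at day 0 and Sprr2a3 was highest at day 3. Over all cells Sprr1a was 236, 334, 394 and 386 CPM at days 0, 1, 3 and 6 (701, 802, 1225 and 2470 cells). Relative to day 0 it was 1.42-fold (1.36 to 1.48), 1.67-fold (1.61 to 1.73) and 1.63-fold (1.57 to 1.69), under the 2-fold change that 1.68%, 3.17% and 4.4% of genes passed upward and 0.971%, 3.27% and 4.53% downward. Sprr2a3 was 4.04, 15.6, 45.9 and 17.9 CPM, or 3.86-fold (2.93 to 5.16), 11.3-fold (8.82 to 14.8) and 4.41-fold (3.42 to 5.79), though it stayed under 50 CPM, the level from which folds of other genes were counted. Its share of cells with a UMI was 2.43%, 8.23%, 16.8% and 6.11%, highest at day 3. Among cells under 7500 UMIs the log2 ratio of Sprr1a at day 6 to day 0 was 1.60 in place of 0.71.

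Over all prostatic-like cells Sprr1a was lower at later days, while within their clusters it was mostly higher. Among prostatic-like cells Sprr1a was 292, 234, 114 and 143 CPM, with ratios to day 0 of 0.802 (0.763 to 0.843), 0.391 (0.369 to 0.413) and 0.490 (0.468 to 0.513), with 1.13%, 4.53% and 5.53% of genes at least 2-fold lower. Sprr2a3 in these cells was 5.05, 14.4, 35.2 and 12.2 CPM, with ratios of 2.85 (2.12 to 3.89), 6.97 (5.34 to 9.24) and 2.42 (1.83 to 3.23), and again it was highest at day 3. At least 2-fold higher were 1.66%, 3.28% and 4.46% of genes at 50 CPM or more at days 1, 3 and 6. The cluster led by Hbb-bs and Isl1 held most prostatic-like cells of days 0 and 1 (Sprr1a 282 CPM). Those led by Wif1, Gpx2 and Vcan (31.7 CPM) and by Cdh13, Krt14 and Krt5 (281 CPM) held most of days 3 and 6. At days 1, 3 and 6 Sprr1a was 7.78, 25.4 and 35.5 CPM in the Wif1 cluster and 133, 219 and 320 CPM in the Cdh13 cluster. In the Hbb-bs cluster it was 293, 248 and 523 CPM at days 0, 1 and 3, the last in 31 cells. The lower level over the whole class at later days thus came with a change in the clusters that make it up.

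The highest explant levels lay outside the prostatic-like class. Urothelium-like cells, marked by Upk3a, had 2599 CPM of Sprr1a, with a UMI in 97.7% of 214 cells, and 21.2 CPM of Sprr2a3. Their Sprr1a was 1703, 2675 and 2898 CPM at days 1, 3 and 6. An unnamed cluster of 241 cells led by Spink5, Psca, Arg1, Crnn, Nupr1, Ly6d, Krt6a and Krt4 had 2026 CPM of Sprr1a and the highest Sprr2a3 of the library, 165 CPM, with 105, 172 and 193 CPM at days 1, 3 and 6. All 4 Sprr3 UMIs were in this cluster, 3 of them in 2 cells of day 1 and 1 at day 3. The cluster made up 1.14%, 4.86%, 9.06% and 3.36% of cells at days 0, 1, 3 and 6, highest on the day when Sprr2a3 over all cells was highest. Mesonephric-like cells had 75 UMIs of Sprr1a in 198 cells at day 0 and 58.4, 166 and 103 CPM at days 1, 3 and 6, and the 325 CPM of mesenchyme-like cells at day 6 came from 63 UMIs in 2 of 20 cells.

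**Figure D5:**
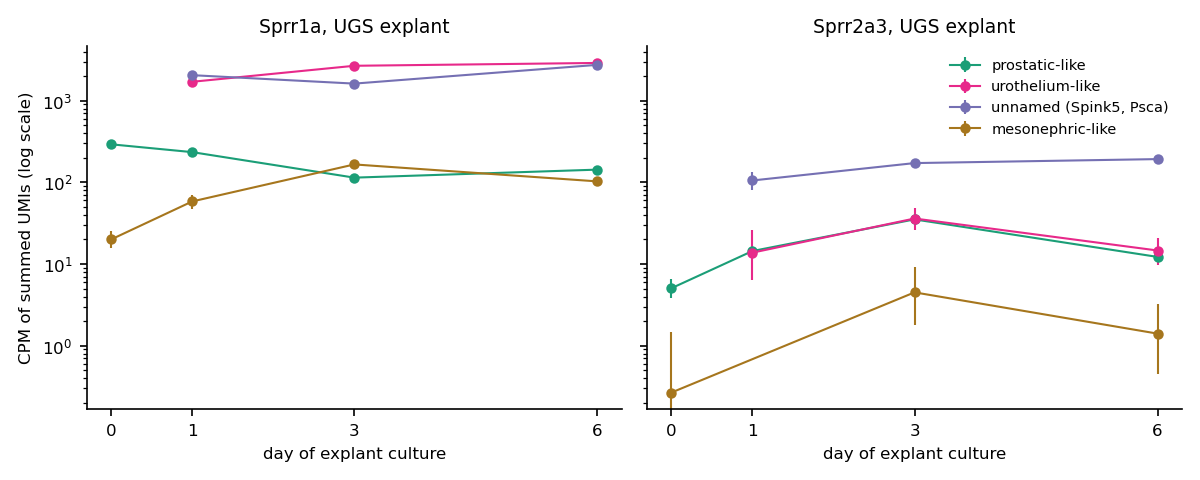
Levels of Sprr1a and Sprr2a3 in explant cells by day of culture, in CPM on a log axis with 95% Poisson intervals for counting error, for prostatic-like, urothelium-like, unnamed (Spink5, Psca) and mesonephric-like cells of 1 library. Sprr1a of prostatic-like cells is at 292 CPM at day 0 and 143 CPM at day 6, while urothelium-like cells reach 2898 CPM.

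The genes whose pattern was most like each member were read over 32 sums, each of the intact cells of 1 run in 1 named cluster, as Pearson's r of log2(CPM + 1), a description over sums that share libraries. For Sprr2a3 these were Rad51b (0.79), Smim6 (0.78), the proximal luminal keratin Krt4 (0.78), Gsdmc3 (0.76) and Pkm (0.75). For Sprr1a they were Eif3c (0.85), Cul3 (0.85), Vps4b (0.84), Pkn2 (0.83) and Rab14 (0.81). Sprr1a and Sprr2a3 were less alike, with an r of 0.36 over all sums and 0.56, 0.67 and 0.31 within runs 1, 2 and 3 (8, 12 and 12 sums).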

How the data were processed

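Single-cell 3′ RNA counts of mouse prostate and UGS explant cells were analysed in 4 libraries. The authors made the deposited counts, UMIs per gene and cell, with Cell Ranger 3.1.0 on mm10 and assigned MULTI-seq barcodes with Seurat 3.1.5, per the labels and the study's methods. Cells were assigned here by comparing barcode counts with the HTODemux and additional thresholds that the study gives. Seurat 5.3.0 (R 4.3.3) was used for clustering. Adult cells had 750 to 7500 detected genes and up to 10% mitochondrial UMIs, and explant cells had at least 1000 genes and up to 7.5%. The methods name 7500 as a limit on UMIs of adult cells, which leaves 197, 704 and 444 assigned cells of runs 1 to 3, so this was run as an alternative, also on the explant library (200 cells). Barcodes numbered 2612, 6034, 3028 and 7474 in runs 1 to 3 and the explant library, 1891, 4398, 2243 and 6614 passed the limits on genes and mitochondrial UMIs, and 824, 2194, 1673 and 5198 carried 1 assigned barcode. Assigned cells held 15840672, 39115039, 26703293 and 90129168 UMIs. No count column was left out.

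Cells were clustered on 50 components at resolutions of 0.4 (adult) and 0.3 (epithelial), without Sprr genes. Scrublet (scanpy 1.11.5) called 14, 20, 3 and 1 doublets, too few to have worked in the explant library, so the highest 6% of scores were left out as an alternative. UMIs were summed per run and class or sort with at least 10 cells. The edgeR 4.0.16 quasi-likelihood test (TMM, filterByExpr) was fitted over all genes with Benjamini-Hochberg adjustment at 0.05, and DESeq2 1.42.0 was an alternative. Runs are pools of mice, so p-values measure the spread between pools. Both sorts of a run came from the same pooled mice, so the run pairs them by design, and deviations of paired sums correlated at 0.15 to 0.66. The main tests left this pairing out, and fits with the run as a block are given beside them. Poisson and binomial intervals cover counting error only. The code was tested on simulated data. The members and lists were chosen with earlier results of these data known. Genes named were the 7 members, other Sprr genes as totals, list genes past the threshold and the 5 genes most alike in pattern.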

Additional observations from a re-analysis of the deposited data

Results flagged for a closer look

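Members were also counted in barcodes outside the comparisons, that is barcodes that failed a limit, carried no sample barcode or carried more than 1 (1788, 3840, 1355 and 2276 barcodes in runs 1, 2 and 3 and the explant library). Each value below is above the limit that a count of 0 allows, which is what brought it here. Sprr1a had 2630, 21775, 4207 and 12160 UMIs in these barcodes, or 137, 461, 314 and 393 CPM against 156, 531, 373 and 352 CPM in assigned cells. Sprr2a3 had 2376, 1572, 123 and 618 UMIs, or 124, 33.3, 9.19 and 20 CPM against 152, 37.1, 43.7 and 21.8 CPM. In run 3 the Sprr2a3 level outside the comparisons was thus lower than in assigned cells by more than in the other libraries. Sprr2a1 had 5 UMIs in run 1 and 13 in run 2, Sprr2a2 had 8 in run 2, and Sprr2b had 9 in run 1 and 10 in run 2. The groups of 3 runs were too small to look for outlying samples.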

How the results depend on the processing

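The run block changed the counts of calls in all 4 tests. With the replicate block the genes called were 44 in place of 0 in AP basal-like cells, 139 in place of 26 in VP luminal-like cells, 104 in place of 1 between RFP+ basal-like cells of AP and VP, and 136 in place of 20 in AP luminal-like cells outside Lum-D-like cells. Under it Sprr1a was -0.23 in AP basal-like cells and -0.82 between the lobes (log2, edgeR adjusted p = 0.0247, with only 2 runs paired), and the pairing changed no other call of Sprr1a. In the same order of tests, DESeq2 called 1, 67, 13 and 100 genes and the fit without the low-count filter 11, 189, 39 and 528. HTODemux thresholds alone gave 7 in VP, 11 between lobes and 7 outside Lum-D-like cells. Leaving out 1 run gave 0 to 66 in VP, 1 to 48 between lobes and 0 to 37 outside Lum-D-like cells. Between lobes, a minimum of 20 cells gave 0, clusters made with the Sprr genes 27, cells under 7500 UMIs 2 and the doublet filter 38. Outside Lum-D-like cells these were 48, 0 and, for the doublet filter, 80.

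Sprr1a changed sign in AP basal-like cells (0.09) with clusters made with the Sprr genes (-0.062), HTODemux thresholds alone (-0.11), the doublet filter (-0.26) and without run 2 or 3 (-0.040 and -0.0092, range to 0.23). Between lobes (0.21) it did so without run 3 (-0.48, range to 1.17) and at a minimum of 20 cells (-0.31). Where a run was left out, VP basal-like RFP+ cells could be left with 1 sum, which was assumed to vary like the others.

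Of described values, Sprr2a3 in Lum-D-like cells (655 CPM) was 687 with the doublet filter and 884 without the 50 most abundant genes. The castrated log2 ratio in AP RFP+ luminal-like cells was 1.32 for Sprr1a (1.55) and -4.33 for Sprr2a3 (-6.11) at resolution 0.6, and the same with the unnamed cluster counted as Lum-D-like, a choice made after seeing the data. It was 1.28 and -4.40 with HTODemux thresholds alone, and 1.39 for Sprr1a without the 50 most abundant genes. The explant log2 ratio of Sprr1a at day 6 (0.71) was 1.60 in cells under 7500 UMIs, 0.65 with HTODemux thresholds alone and 0.77 without the 50 genes. In Lum-D-like against other luminal cells the doublet filter gave 4.45 for Sprr1a and 4.90 for Sprr2a3, and leaving out 1 run gave 7.11 to 9.10 for Sprr2a3. Between AP luminal sorts leaving out 1 run gave 2.92 to 4.03 for Sprr1a and 3.23 to 4.99 for Sprr2a3, the doublet filter 3.93 for Sprr1a, and for Sprr2a3 resolution 0.6 gave 2.90, HTODemux thresholds alone 2.99 and the merged cluster 2.89. The causes were not tested. Of the other alternatives, 86 of these main values and 43 of the single-gene values stayed on their side or within the spread. Of the 4 tests, cells under 7500 UMIs gave values only for the basal-like ones. Depth limited the 5 members with under 500 UMIs, none of which passed the low-count filter.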

Other observations

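Sprr2a3 in the unnamed adult cluster of run 2 was uneven between sorts. Intact AP RFP- cells had 1797 CPM (226 UMIs in 4 cells), AP RFP+ cells 107 CPM in 7 cells, and VP RFP+ cells 963 CPM, with 58 UMIs in 1 of 4 cells, while 37 AP RFP+ cells of run 3 had 7.56 CPM. Castrated DLP RFP+ luminal-like cells of run 2, which had no assigned intact counterpart in that run, had 1702 CPM of Sprr1a and 210 Sprr2a3 UMIs in 27 of 147 cells.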
